A study of Mus musculus with 18 samples.

Results

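Expanded polyglutamine tracts in the TATA-binding protein (TBP), a general transcription factor, cause spinocerebellar ataxia 17. The interval described here is the earlier of those sampled after a long-tract TBP was put into cells: the same construct, 24 h against 36 h. Neuro2A cells, a mouse neuroblastoma line, were nucleofected with TBP fused to GFP and carrying 59 glutamines (59Q), and total RNA was hybridised to Agilent mouse miRNA arrays in 1 colour. All 3 arrays of 59Q cells at 24 h and all 3 at 36 h were taken, by construct and time label alone, which gave 6 of the 18 arrays of the series. The other 12 are the 59Q cells at 60 h and, at each of the 3 times, cells given the same GFP fusion with 16 glutamines (16Q), with 3 arrays per group. Both constructs are TBP fusions delivered transiently, so every group carries extra TBP and GFP and no untransfected group was used here. The samples are bulk RNA, in which a change per cell and a change in the share of cells carrying the construct cannot be told apart. The labels call the arrays biological replicates without saying that they are separate cultures, so each p-value speaks only of the spread among these arrays.

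A miRNA is cut from a hairpin and loaded into an Argonaute protein, where its seed, bases 2 to 8, pairs with target mRNAs and lowers their translation and stability. miRNAs with one seed form a family that can act on the same targets. The guide strand of a hairpin is usually the stable, loaded one, while the partner strand, marked with an asterisk in the array's names, is usually degraded. The families below are common in neural and dividing cells: let-7 and the miR-29 family are known for their increase as neurons mature, and the miR-17 family for driving proliferation.

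The sequences of the families that lay lowest at 36 h relative to 24 h are shown with those of the other miRNAs whose values are given array by array. They are RefSeq mature sequences from the GRCm38.p6 annotation, written 5′ to 3′ with the seed in capitals. The array's older names were matched to the annotated guide arm, or to the partner arm for an asterisk, for 165 of the 226 miRNAs tested. The miR-29 family shares the seed AGCACCA, and its members differ only beyond it.
miR-29a: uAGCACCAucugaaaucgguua
miR-29b: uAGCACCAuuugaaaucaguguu
miR-29c: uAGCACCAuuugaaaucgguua
The miR-30 members found in the annotation share GUAAACA.
miR-30a: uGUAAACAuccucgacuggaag
miR-30c: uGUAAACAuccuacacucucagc
miR-30e: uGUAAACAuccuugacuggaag
The miR-17 family shares AAAGUGC and is transcribed from 3 related clusters, of which miR-106b and miR-93 lie on chromosome 5 beside miR-25, a member of another seed family.
miR-106b: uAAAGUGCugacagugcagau
miR-93: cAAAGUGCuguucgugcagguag
miR-17: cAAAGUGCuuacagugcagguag
miR-20a: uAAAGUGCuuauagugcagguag
miR-25: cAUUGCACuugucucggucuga
The members of other families that had low values at 36 h are given next.
let-7i: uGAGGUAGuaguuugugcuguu
miR-16: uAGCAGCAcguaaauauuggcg
miR-99b: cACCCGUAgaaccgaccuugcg
miR-130a: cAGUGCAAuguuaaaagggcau
miR-101b: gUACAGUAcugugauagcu
miR-880: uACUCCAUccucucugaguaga
miR-21: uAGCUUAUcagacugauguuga
The miRNAs with the smallest p among those higher at 36 h, where matched, are miR-485*, miR-207 and miR-574-3p.
miR-485*: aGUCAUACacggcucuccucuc
miR-207: gCUUCUCCuggcucuccucccuc
miR-574-3p: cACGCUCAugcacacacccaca

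No miRNA passed the test between 24 h and 36 h in 59Q cells, 0 of 226 at a Benjamini-Hochberg adjusted p of 0.05 in limma, so 0% were called. The smallest adjusted p was 0.0905, shared by 15 miRNAs, all of them lower at 36 h. At an unadjusted p of 0.05 in limma, 49 miRNAs were lower (21.7%) and 15 higher (6.64%). Levels are log2 values after each array was divided by its 75th percentile over the 290 mouse probes above background on every array. A level of 0 equals that percentile, and a change is relative to it. On this scale 151 miRNAs were lower and 75 higher at 36 h, or 66.8% lower, with a median change of -0.26. Every 36 h array lay below every 24 h array for 56 miRNAs (24.8%) and above for 13 (5.75%), and the 2 groups overlapped for 157. The counts of lower, higher and non-overlapping members in the lists below are to be read beside these shares. With 3 arrays against 3, the exact two-sided permutation test cannot go below p = 0.1, which each of those non-overlapping miRNAs reaches.

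The split between lower and higher depended on the scaling. It was 85.0% lower with normexp background correction, 61.9% with a percentile over all mouse probes, 58.8% with quantile normalization, 35.0% with no scaling between arrays, 31.9% in the authors' deposited table and 18.1% when each array was set to its small-RNA control probes. The median change of all miRNAs moved with it, to -0.33, -0.18, -0.13, 0.31, 0.20 and 0.75 in that order. The 23 small-RNA control probes, which include U6 and vault RNA, were all lower at 36 h on the main scale, with a median change of -0.87, and 17 were lower without scaling, with a median of -0.22. A list is therefore described below by where it lay against the median of all miRNAs, beside its signed change, and in how many of 23 settings, the reported one included, it stayed on that side. These settings are not separate checks. The variance options, the fit of only the compared arrays and the replicate block leave each change as reported. Leaving out the scaling, or using another percentile or the small-RNA probes, moves all miRNAs of an array above the floor by the same amount. A list's place against that median can then change little.

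The 2 times lay on different slides, each scanned once, so within 59Q cells time and slide cannot be told apart. The only group split across these slides was 16Q at 36 h, and there the array on the later slide differed from the other 2 by a median of 0.015 over all miRNAs and 0.073 over the 56 low ones. The scaling equates the 75th percentile of bright probes and does not itself set such a median to 0. Single lists differed more between these slides, from -0.49 for the array entries miR-680 to miR-721 to 0.57 for let-7. The values were 0.13 for miR-29, -0.018 for miR-30 and 0.11 for the miR-17 clusters. The 6 arrays also differed from one another. The 24 h replicate 1 was the dimmest, with a 75th percentile signal of 106 against 182 and 260 for replicates 2 and 3, and the 36 h arrays reached 316, 277 and 223. The 36 h replicate 2 correlated least with the rest of the series, at a median of 0.759, and was the only array whose processed signal had no correction of the spatial trend. No spot was saturated, and 23.3% to 35.4% of spots were well above background.

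The 36 h replicates were unequally far from the 24 h arrays. Of the 56 miRNAs with no overlap, replicate 2 was the lowest 36 h array for 49 and replicate 1 the highest for 54. Their median difference from the 24 h mean was -0.49 in replicate 1, -1.34 in replicate 2 and -0.91 in replicate 3. Without the 36 h replicate 1, 63 miRNAs passed in limma, 42 lower and 21 higher. Without the 36 h replicate 2, 0 passed, 18 reached an unadjusted p of 0.05 in limma and the median change of all miRNAs was -0.088.

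**Figure D1:**
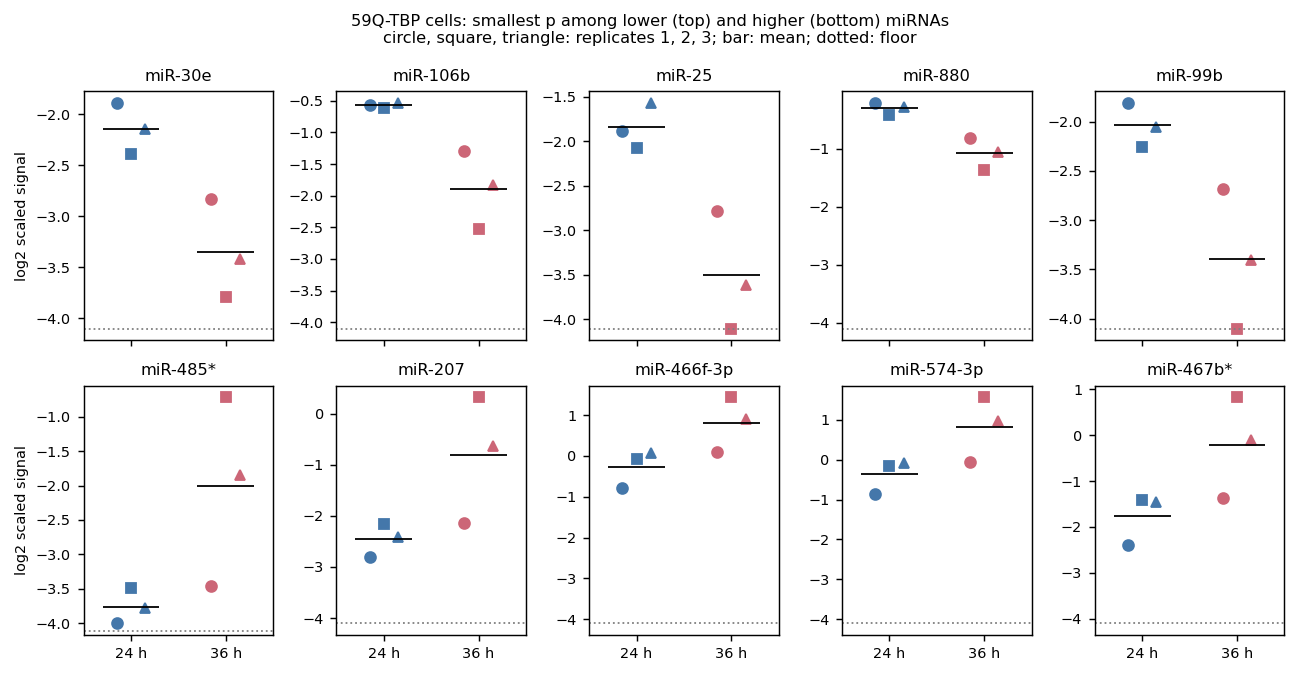
Level of each array (log2 scaled signal) at 24 h and 36 h in 59Q cells, for the 5 lower miRNAs (top row) and the 5 higher miRNAs (bottom row) with the smallest p; symbols are replicates, bars are means and the dotted line is the floor of -4.11. In all 10 the 2 times do not overlap, replicate 1 at 36 h is the array nearest to 24 h, and replicate 2 is the farthest.

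The miR-29 family, which represses collagens and other matrix genes and pro-apoptotic genes in neurons, was lower at 36 h in all 3 members. The level of miR-29a was 0.50, 0.44 and 0.50 at 24 h and -0.12, -1.59 and -0.86 at 36 h in replicates 1 to 3. That of miR-29b was 0.55, 0.86 and 0.96 at 24 h and 0.06, -0.997 and -0.40 at 36 h. That of miR-29c was -1.63, -1.62 and -1.54 at 24 h and -2.12, -3.48 and -2.73 at 36 h. The groups did not overlap for any of the 3, and the 24 h arrays lay close together while the 36 h arrays spread over more than a log2 unit. The changes were -1.34 (SE 0.40) for miR-29a, -1.24 (SE 0.38) for miR-29b and -1.18 (SE 0.37) for miR-29c, each with a limma adjusted p of 0.0905. As folds these are 2.53, 2.36 and 2.27 lower. The family's median change was -1.24 against -0.26 for all miRNAs, below that of all miRNAs in 23 of 23 settings and below 0 in 23. When arrays were set to the small-RNA probes, however, the family's median was only -0.0083. There miR-29a was at -0.11, miR-29b at -0.0083 and miR-29c above 0, at 0.034.

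The miR-30 family, guide strands known in many tissues for restraining developmental and stress genes, was lower in all 5 tested members of 5 on the array, with changes from -1.37 to -0.87 and a median of -1.21. miR-30e, the miRNA with the smallest p of the comparison, stood at -1.89, -2.39 and -2.14 at 24 h and at -2.83, -3.79 and -3.42 at 36 h. Its groups were a clear step apart, 2.31-fold lower with a change of -1.21 (SE 0.32) and a limma adjusted p of 0.0905. miR-30a stood at -1.97, -2.71 and -2.43 at 24 h and at -3.31, -4.11 and -3.81 at 36 h, where replicate 2 was at the floor and 2 of 3 arrays were above background. Its change was -1.37 (SE 0.43, limma adjusted p = 0.0905). The groups did not overlap for 3 of the 5 members. In miR-30b and miR-30c the dim 24 h replicate 1 fell within the range of the 36 h arrays. The list median was below that of all miRNAs in 23 of 23 settings. With the floor 4 times higher, however, it was only -0.13, against -0.0089 for all miRNAs.

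The clusters miR-17-92, miR-106a-363 and miR-106b-25, known for promoting the cell cycle, had 11 of 13 entries tested. All 11 were lower, 7 at an unadjusted p of 0.05, 5 without overlap, and the median change was -1.07, below that of all miRNAs in 23 of 23 settings. miR-106b had nearly equal levels at 24 h, of -0.56, -0.62 and -0.53, and stood at -1.30, -2.53 and -1.84 at 36 h. No 36 h array came near them, and the change of -1.32 (SE 0.35) was 2.49-fold lower with a limma adjusted p of 0.0905. miR-25, from the same hairpin cluster but with another seed, stood at -1.88, -2.07 and -1.57 at 24 h and at -2.79, -4.11 and -3.62 at 36 h, with replicate 2 at the floor and 2 of 3 arrays above background. Its change, computed with that floor value, was -1.66 (SE 0.46, limma adjusted p = 0.0905).

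Grouped by the shared seed AAAGUGC, miR-106a, miR-106b, miR-17, miR-20a, miR-20b and miR-93 were all lower, from -1.53 to -1.02, and all 6 had an unadjusted p under 0.05 in limma. The groups overlapped for miR-20a and miR-20b, both of which were low in the 24 h replicate 1. miR-20a stood at -1.34, -0.56 and -0.28 at 24 h and at -1.17, -3.28 and -2.31 at 36 h, so that its replicates numbered 1 were close to each other.

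**Figure D2:**
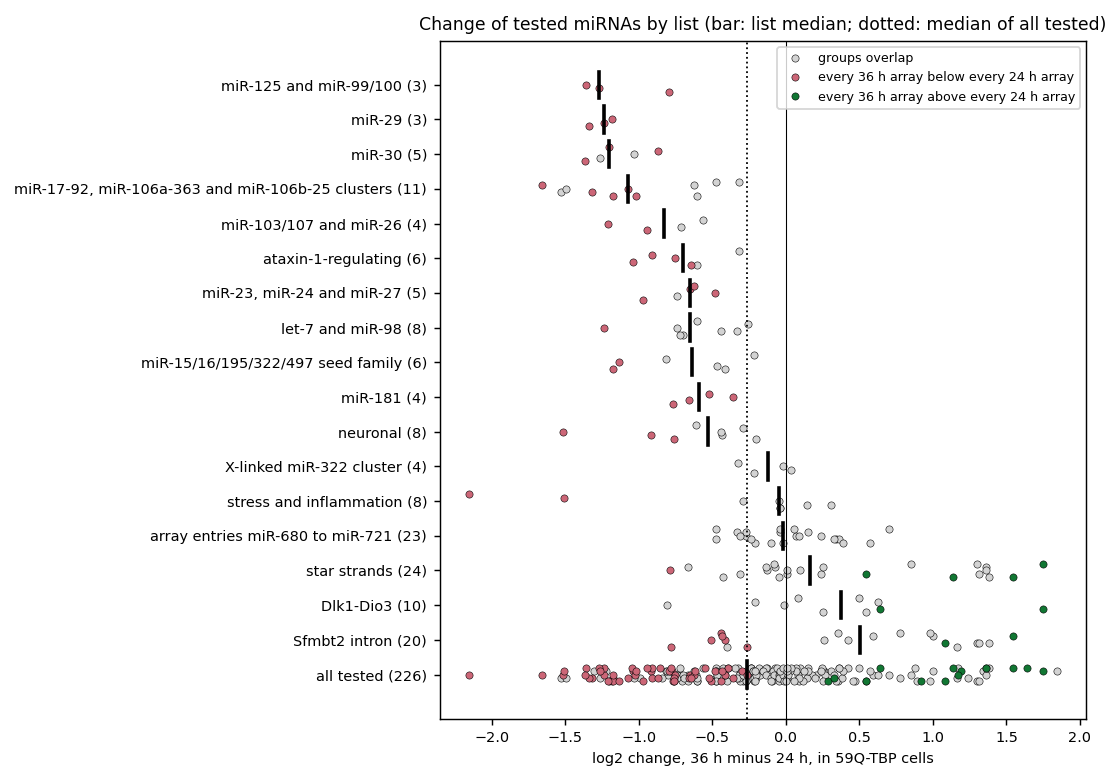
Change from 24 h to 36 h in 59Q cells (log2, horizontal axis) of each tested miRNA, by list, with the number tested in brackets; black bars are list medians and the dotted line is the median of all 226, -0.26. The miR-29, miR-30 and miR-125 and miR-99/100 lists lie at the left with medians from -1.27 to -1.21, and, of the lists with 3 or more tested members, which are those drawn, the Sfmbt2 intron list at the right with 0.51.

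Other families of guide strands, dim ones among them, also lay below the median of all miRNAs. The miR-125 and miR-99/100 list, encoded beside let-7 in several clusters, had 3 of 5 entries tested, all 3 without overlap, and a median of -1.27. Within it miR-99b stood at -1.81, -2.26 and -2.05 at 24 h and at -2.68, -4.11 and -3.41 at 36 h, a change of -1.36 (SE 0.40, limma adjusted p = 0.0905). It rests on 1 probe, and its 36 h replicate 2 is a floor value. miR-125b-5p, a regulator of neuronal differentiation, had a change of -1.27 (SE 0.46, limma adjusted p = 0.129), with its 36 h replicate 1 at -0.95 next to its 24 h replicate 1 at -0.93. This list too was below 0 and below the median of all miRNAs in 23 of 23 settings. With the floor 4 times higher, however, its median was only -0.12, against -0.0089 for all miRNAs.

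All 8 tested let-7 members were lower, with a list median of -0.65, but only let-7i had no overlap. let-7i stood at -2.07, -2.32 and -2.08 at 24 h and at -2.89, -3.90 and -3.39 at 36 h. Its change was -1.24 (SE 0.37, limma adjusted p = 0.0905). let-7c stood at 0.78, 1.45 and 1.78 at 24 h and at 1.32, -0.17 and 0.64 at 36 h, so that replicate 1 was higher at 36 h than at 24 h, the reverse of replicates 2 and 3. The members of this family are close in sequence, and probes for one can also bind another, so that their values are not independent. The list was below the median of all miRNAs in 23 settings and below 0 in 22, the exception being the scaling to small-RNA probes.

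The miR-16 seed family AGCAGCA, which represses cyclins, was lower in 6 of 6 members with a median of -0.64, below that of all miRNAs in 23 settings. miR-16 stood at 0.46, 1.07 and 1.15 at 24 h and at 0.36, -0.81 and -0.28 at 36 h, a change of -1.14 (SE 0.40, limma adjusted p = 0.119). It turned to 0.093 when arrays were set to the small-RNA probes. miR-322, an X-linked member of that family, stood at 0.77, 1.07 and 1.22 at 24 h and at 1.16, 0.17 and 1.07 at 36 h, a change of -0.22 (SE 0.29, limma adjusted p = 0.661). Its groups overlapped, as did those of 4 of the 6 members in all.

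Other guide-strand lists also lay below the median of all miRNAs. miR-23, miR-24 and miR-27 had a median of -0.65 with 4 of 5 members without overlap, and miR-103, miR-107 and miR-26 a median of -0.83 with 2 of 4. The miR-181 list, which includes regulators of lymphocyte and neural genes, had 4 of 4 members without overlap and a median of -0.59. Most of its levels were near the floor, and miR-181a was at -4.11 in all 3 arrays at 36 h. The list of miRNAs reported to repress ataxin-1, another polyglutamine protein, was lower in 6 of 6 with a median of -0.70, of which 4 had no overlap. Within it miR-101b stood at -2.53, -2.31 and -2.22 at 24 h and at -3.08, -3.72 and -3.38 at 36 h, a change of -1.04 (SE 0.32, limma adjusted p = 0.0905). miR-130a, one of the brighter miRNAs with no overlap, stood at 1.47, 1.34 and 1.34 at 24 h and at 0.87, 0.34 and 0.67 at 36 h. Its change was -0.76 (SE 0.27, limma adjusted p = 0.129).

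Outside these lists, miR-880, encoded on the X chromosome, was the fourth by p. It stood at -0.21, -0.42 and -0.29 at 24 h and at -0.81, -1.36 and -1.06 at 36 h, a change of -0.77 (SE 0.22, limma adjusted p = 0.0905). The 24 h arrays lay closer together than the 36 h arrays. miR-21, a miRNA of growth and stress signalling, had the largest measured decrease, with -1.50, -1.10 and -0.49 at 24 h and -2.07, -4.11 and -3.39 at 36 h, where 2 of 3 arrays were above background. Its change of -2.15 had an SE of 0.90 and a limma adjusted p of 0.149, the replicates being far apart at both times.

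The neuronal list had 8 of 16 entries tested, all 8 lower with a median of -0.53, and 3 without overlap. Over all miRNAs tested, 66.8% were lower and 24.8% were lower without overlap. miR-132, an activity-dependent neuronal miRNA, and miR-219, known from oligodendrocyte maturation, differed by -0.76 (SE 0.34, limma adjusted p = 0.149) and -0.92 (SE 0.29, limma adjusted p = 0.0905). Both were near the floor, each above background on 1 of 3 arrays at 36 h. The defining neuronal miRNAs miR-124 and miR-9 were above background on 0 of the 6 arrays. Of the same list miR-138 and miR-212 were above background on 6 of 6, miR-149 on 5 and miR-153, miR-219 and miR-7a on 4. Of the markers of other cells, none of 3 liver, 6 blood and 6 epithelial entries was tested, and all were above background on 0 of 6 arrays. Of 6 entries known from pluripotent cells 2 were tested, miR-290-5p, above background on 6 of 6 arrays with a change of 0.36 (SE 0.33), and miR-294, on 4 of 6 with 0.88 (SE 0.48). These 6 leave out miR-292-5p and miR-295*, both tested. The probe of miR-292-5p changed by 0.29, and those of miR-295* by -0.20 to 0.025. miR-206, a muscle miRNA, was above background on 4 of 6 arrays, and so not only at 36 h. Its level was at the floor of -4.11 in the 3 arrays at 24 h and at -4.11, -2.34 and -3.19 at 36 h. The other muscle entries, miR-1, miR-133a, miR-133b and miR-208, were above background on 0 of 6 arrays.

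Partner strands made up 4 of the 13 miRNAs whose 36 h arrays were all higher and 1 of the 56 whose 36 h arrays were all lower, or 30.8% and 1.79%, against 24 of all 226 tested (10.6%). miR-485* stood at -4.00, -3.49 and -3.78 at 24 h and at -3.45, -0.72 and -1.85 at 36 h. Its change was 1.75 (SE 0.68, limma adjusted p = 0.133), or 3.36-fold higher. miR-207 stood at -2.81, -2.16 and -2.41 at 24 h and at -2.14, 0.32 and -0.63 at 36 h, a change of 1.64 (SE 0.65, limma adjusted p = 0.139). In both, replicate 1 at 36 h was just above the highest 24 h array and replicate 2 far above it.

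miR-574-3p stood at -0.86, -0.17 and -0.08 at 24 h and at -0.05, 1.56 and 0.96 at 36 h, with a change of 1.19 (SE 0.49, limma adjusted p = 0.149). miR-466f-3p stood at -0.79, -0.09 and 0.07 at 24 h and at 0.11, 1.44 and 0.90 at 36 h, with a change of 1.08 (SE 0.43, limma adjusted p = 0.143). miR-467b* stood at -2.39, -1.42 and -1.47 at 24 h and at -1.36, 0.83 and -0.11 at 36 h, with a change of 1.54 (SE 0.63, limma adjusted p = 0.149). In each the dim 24 h replicate 1 was the lowest array. The same 5 miRNAs were uneven among the 24 h arrays of 16Q cells too: miR-485* stood there at -0.97, -0.90 and -3.49, and miR-207 at 0.14, 0.06 and -2.21. In 16Q cells the changes of miR-485*, miR-207 and miR-574-3p from 24 h to 36 h were -0.86, -0.70 and -0.32. The difference of the change between the constructs passed for 0 of 226 miRNAs, as given below. What caused the 36 h levels was not tested.

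The Sfmbt2 intron list comes from a large rodent repeat of miRNA hairpins. Of 20 tested entries 13 were higher and 7 lower, with a list median of 0.51, above that of all miRNAs in 23 of 23 settings. The 36 h arrays were unequal here. Against the 24 h mean the list median was -0.060 in replicate 1, 1.06 in replicate 2 and 0.47 in replicate 3. Without the 36 h replicate 2 the list median was 0.26. The groups did not overlap for 6 lower entries, among them miR-297c, miR-467a, miR-467b and miR-467c, and for 2 higher ones, miR-466f-3p and miR-467b*. miR-467b and its own partner strand thus lay on opposite sides, at -0.41 and 1.54. miR-297c stood at -2.12, -2.33 and -2.20 at 24 h and at -2.73, -2.75 and -2.69 at 36 h, a small change of -0.51 (SE 0.19, limma adjusted p = 0.129) with close-lying 36 h levels. Members of this repeat are near-identical in sequence, so the signal of a probe can come from several. The Dlk1-Dio3 list, from an imprinted neural cluster, had 10 of its 48 entries tested and a median of 0.37. This list is incomplete. It leaves out miR-433*, miR-654-3p and miR-770-3p of the same cluster, all tested and lower at 36 h, at -0.13, -0.22 and -0.34. Its count and median therefore hold only for the entries listed. The partner strands as a whole had 24 of 115 tested, 15 higher and 9 lower, with a median of 0.17. They include miR-297b-3p/miR-297c*/miR-297a*, miR-467a*/miR-467d*, miR-467b* and miR-467e* of the Sfmbt2 intron list and miR-485* of the Dlk1-Dio3 list. Those lists are therefore not separate from the partner strands. The array entries numbered miR-680 to miR-721, many of which have doubtful standing as miRNAs, had 11 higher and 12 lower of 23 tested, with a median of -0.023 and no member without overlap. The X-linked miR-322 cluster, 4 of 11 tested, had a median of -0.12. None of 5 miRNAs linked to p53 was bright enough to be tested.

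The stress and inflammation list had 8 of 10 tested and a median of -0.045 against -0.26 for all. miR-210, induced by hypoxia, stood at -3.17, -3.60 and -3.56 at 24 h and at -3.10, -3.86 and -3.51 at 36 h. miR-146a, induced by NF-kB signalling, stood at -2.14, -2.05 and -1.96 at 24 h and at -1.73, -2.48 and -2.06 at 36 h. The changes were -0.043 (SE 0.25) and -0.042 (SE 0.28), each with a limma adjusted p of 0.939, overlapping groups and a sign that turned with the scaling. From 36 h to 60 h both rose: to means of -1.86 and -0.74 at 60 h, changes of 1.63 (SE 0.25, limma adjusted p = 0.00165) and 1.35 (SE 0.28, limma adjusted p = 0.0174). They were the only 2 of 226 to pass in that interval, in which 1 of the 3 arrays at 60 h shared the slide of the 36 h arrays.

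The 16Q cells at the same 2 times give the comparison with the short tract. Their change passed the limma test for 0 of 226 miRNAs, and 26 had an unadjusted p under 0.05. Of the 56 miRNAs low in 59Q cells, 26 were lower at 36 h in 16Q cells, with a median change of 0.036 against 0.15 for all miRNAs. The difference of the 2 changes, 59Q minus 16Q, passed for 0 of 226 (0%) with a smallest limma adjusted p of 0.170. It had an unadjusted p under 0.05 for 56 (24.8%), and it was below 0 for 179 of 226 (79.2%), with a median of -0.63. Its direction depended on the scaling: it was below 0 for 3.98% of miRNAs with no scaling between arrays, for 5.31% in the authors' deposited table and for 0% with scaling to the small-RNA probes, with medians of 0.64, 0.35 and 1.13. With normexp, quantile normalization and the percentile over all mouse probes it was below 0 for 86.7%, 67.3% and 72.1%.

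**Figure D3:**
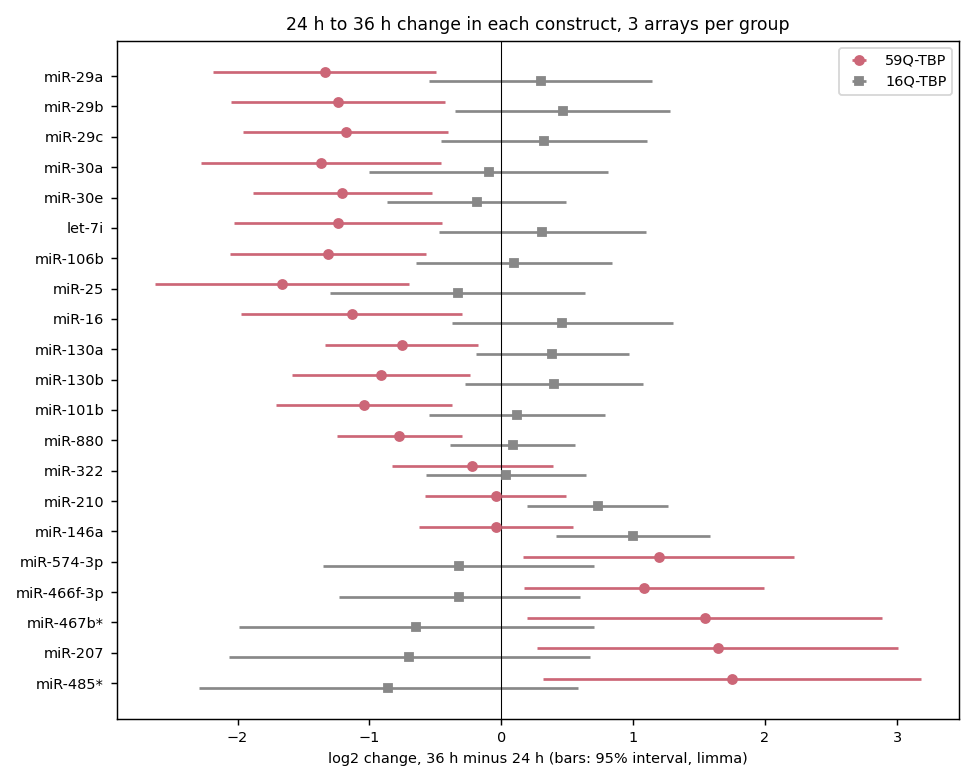
Change from 24 h to 36 h (log2, horizontal axis) of miRNAs named in the text in 59Q cells (circles) and 16Q cells (squares), 3 arrays per group, with 95% intervals from limma. The 59Q values of the 3 miR-29 members lie between -1.34 and -1.18 and their 16Q values between 0.30 and 0.47 on the reported scale; the sign of the difference between constructs turned with the scaling for most miRNAs.

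The smallest p for that difference belonged to miR-29b, let-7i and miR-130a. In 16Q cells miR-29b stood at -0.22, 0.20 and 0.96 at 24 h and at 0.72, 0.71 and 0.91 at 36 h, a change of 0.47. The difference between constructs was -1.70 (SE 0.54, 95% interval -2.85 to -0.55, limma adjusted p = 0.170). let-7i stood at -2.54, -2.47 and -2.10 at 24 h in 16Q cells and at -1.84, -2.33 and -2.01 at 36 h, with a difference of -1.55 (SE 0.53) between constructs. miR-130a stood at 0.57, 0.81 and 1.54 and then at 1.47, 1.27 and 1.34, with a difference of -1.14 (SE 0.39). Relative to the median difference of all miRNAs, miR-29b lay lower under each scaling, by -1.07 as reported, -0.85 with no scaling and -0.66 with the small-RNA probes. miR-29b was chosen by its p for this same difference, so a place below that median comes with the choice. Its own difference was -0.21 with no scaling and 0.47 with the small-RNA probes, where let-7i and miR-130a were also above 0, at 0.62 and 1.03. In the deposited table it was -0.17, with let-7i at 0.026 and miR-130a at 0.32. In all 3 the 16Q replicate 3 at 24 h was above the other 2. Without that array 55 miRNAs passed the test of the difference, and without any other single array 0 passed.

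Probes of one miRNA moved together. Of 180 tested miRNAs with more than 1 probe, 163 had all probes on the same side of 0, as had all 50 such miRNAs among the 56 low ones. The probes of a miRNA lie on the same arrays, so this speaks for the summary of probes and not for the samples.

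The change also went with base composition. Over the 165 miRNAs with a matched sequence, the share of G and C correlated with the 59Q change at Pearson's r = 0.41 and Spearman's rho = 0.42, and with the 16Q change at r = 0.30 and rho = 0.28. These correlations are over miRNAs of the same arrays, which are not independent. The median 59Q change was -0.60 for the 55 miRNAs with 30.4% to 42.9% G and C, -0.47 for the 65 in the middle and 0.0023 for the 45 with 56.5% to 81.8%. miR-29b had 34.8% and miR-207 65.2%. Against this, miR-99b had 63.6% and a change of -1.36.

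**Figure D4:**
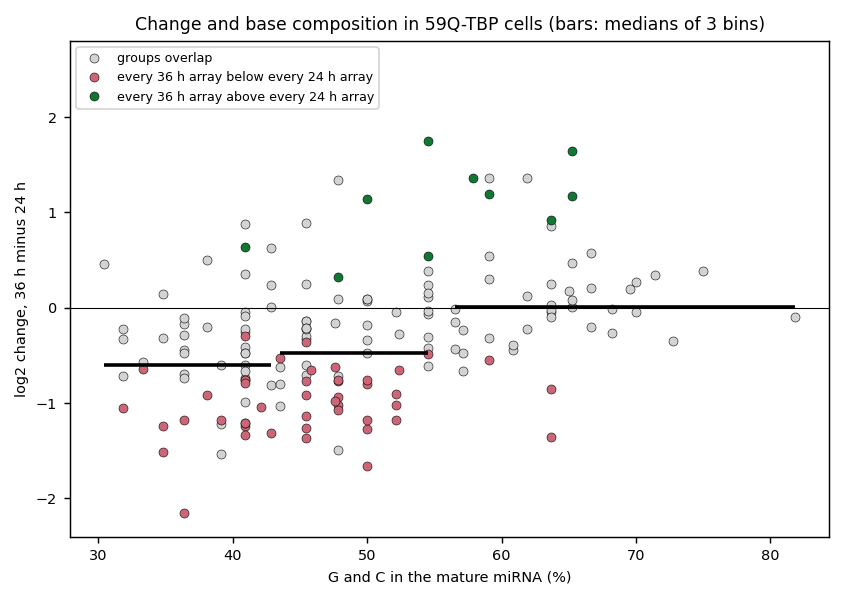
Change from 24 h to 36 h in 59Q cells (log2, vertical axis) against the share of G and C in the mature sequence (percent, horizontal axis) for 165 miRNAs, with bars at the medians of 3 bins. The 36 h arrays all lie below the 24 h arrays for 18 of 55 miRNAs in the low bin, 25 of 65 in the middle bin and 3 of 45 in the high bin. Over all 226 tested this share is 24.8%.

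**Figure D5:**
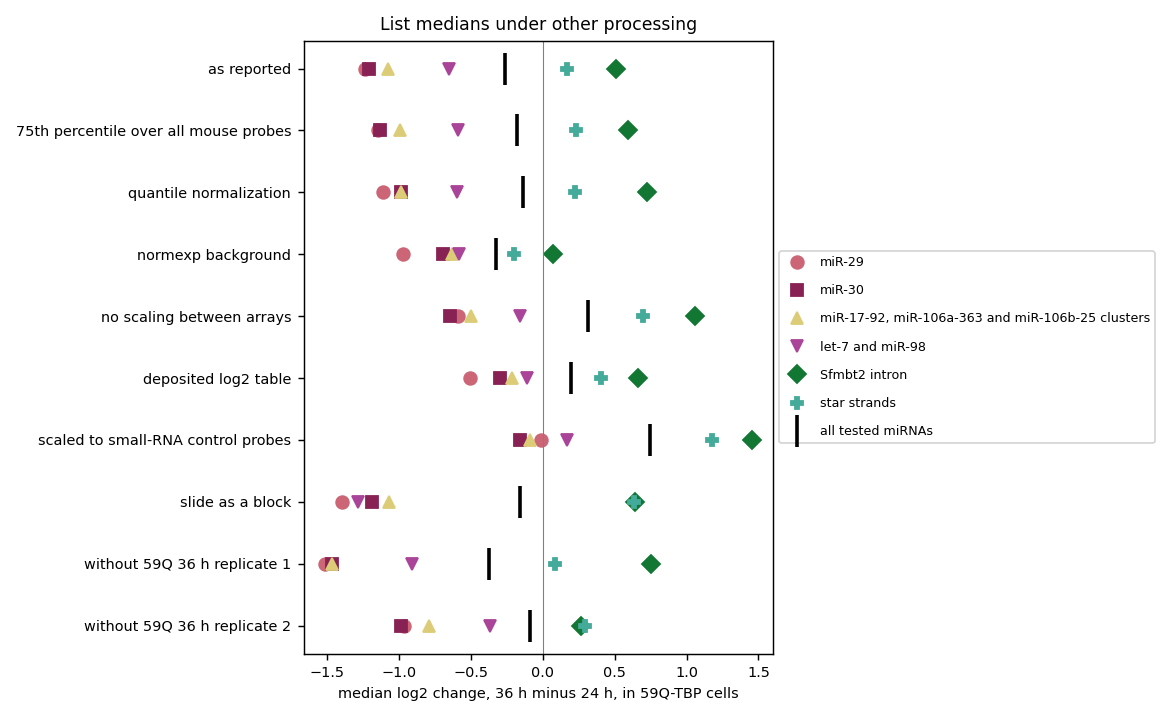
Median change from 24 h to 36 h in 59Q cells (log2, horizontal axis) of 6 lists and of all tested miRNAs (black bars) under 10 settings, the reported one first. The miR-29, miR-30, miR-17 cluster and let-7 lists stay left of the black bar and the Sfmbt2 intron and star strand lists right of it, while the bar itself moves from -0.37 without the 36 h replicate 1 to 0.75 with scaling to the small-RNA probes. The Sfmbt2 intron and star strand lists share members.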

How the data were processed

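Per the file headers, spots were quantified by Feature Extraction 9.5.1.1 under a gene-expression protocol. The intensity used was the processed signal of each spot as deposited. The deposited table holds log2 values that equal the log2 of the authors' net signal of each spot, unscaled, within 5e-09. Control and outlier spots were left out, and spots of a probe averaged. Each array was divided by its 75th percentile over the 290 mouse probes that exceeded background on each of the 18 arrays. Values were floored at 0.0581 (log2 -4.11), logged, and averaged over the probes of a miRNA. A probe was kept if it was well above background, in 50% of its spots, on all arrays of 1 group or more, which left 557 probes and 226 of 566 mouse miRNA entries. limma 3.58.1 in R 4.3.3 fitted 6 group means (12 residual degrees of freedom), adjusted p-values over the 226 by Benjamini-Hochberg, and was tested on simulated data. The number of arrays limits the precision.

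Alternatives changed the background correction, scaling, filter, floor, probe summary, variance options, blocks and arrays. Members and lists were chosen with earlier results of these data known. Named were the 5 smallest p in each direction, the 2 largest t of each list, the 3 smallest p for the difference between constructs, and miR-322, miR-29a, miR-29b, miR-29c, miR-210 and miR-146a. Seed families were named whole, and miR-467a, miR-467b and miR-467c were chosen after their values were seen.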

Additional observations from a re-analysis of the deposited data

How the results depend on the processing

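The count of 0 miRNAs past the threshold held in 20 of the 23 settings, the reported one included. It was 1 with no filter (miR-297c, -0.38) and 2 with a floor 4 times higher (miR-297c, -0.45, and miR-880, -0.77). Leaving out each array gave 0 to 63, and 0 to 55 for the difference between constructs. Of 44 named miRNAs 35 were lower, and 18 with scaling to the small-RNA probes, where 4 lists in place of 14 of 19 had a median below 0. The labels' replicate numbers did not pair the samples: deviations of same-numbered arrays correlated at -0.012, 0.23 and -0.67, and with the replicate number as a block 0 miRNAs passed (smallest adjusted p 0.118). Slide as a block, tied only through 16Q at 36 h, gave 0 with a smallest adjusted p of 0.407 and 56.6% lower. The 4 times higher floor gave 51.3% lower. With it the list median was -1.20 for miR-29, -0.52 for the miR-17 clusters and -0.20 for let-7. It was -0.13 for miR-30 and -0.12 for miR-125 and miR-99/100.

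These miRNAs changed sign. With normexp, miR-206 was at -0.016, miR-294 at -0.023, miR-290-5p at -0.20 and miR-329 at -0.10. With quantile normalization, miR-210 was at 0.099 and miR-146a at 0.13, and with the percentile over all probes at 0.017 and 0.050. Without scaling, miR-542-3p was at 0.026, miR-322 at 0.43, miR-706 at 0.17, miR-715 at 0.18, miR-210 at 0.44 and miR-146a at 0.58. With the small-RNA probes, miR-880 was at 0.45, let-7c at 0.49, miR-16 at 0.093, miR-542-3p at 0.30, miR-322 at 1.01, miR-23a at 0.25, miR-27a at 0.58, miR-103 at 0.29, miR-181b at 0.42, miR-130b at 0.32, miR-297c at 0.38, miR-706 at 0.69, miR-715 at 0.60, miR-29c at 0.034, miR-210 at 0.68, miR-146a at 1.05 and miR-130a at 0.47. In the deposited table, miR-542-3p was at 0.042, miR-322 at 0.39, miR-181b at 0.050, miR-706 at 0.078, miR-715 at 0.11, miR-210 at 0.24 and miR-146a at 0.35. With slide as a block, miR-181a was at 0.018, miR-706 at 0.019 and miR-715 at 0.19. Without the 24 h replicate 1 and the 36 h replicate 2 together, chosen after seeing the data, miR-715 was at 0.12, miR-210 at 0.28 and miR-146a at 0.11. Leaving out 1 array, miR-715 was at 0.073 and miR-210 at 0.094 without the 24 h replicate 1. miR-542-3p was at 0.045 and miR-146a at 0.0047 without the 24 h replicate 3. Without the 36 h replicate 2, miR-322 was at 0.096, miR-210 at 0.14 and miR-146a at 0.15, the highest of their ranges. The lowest were -0.40, -0.24 and -0.22, all without the 36 h replicate 1, with -0.82 for miR-542-3p without the 24 h replicate 1 and -0.81 for miR-715 without the 24 h replicate 3. The cause was not tested. Removing the spatial trend of the 36 h replicate 2, also chosen after seeing the data, left 0 past the threshold. With the 4 times higher floor, a miRNA at the floor on all 6 arrays had a change of exactly 0 and is counted as neither higher nor lower.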
